A study of Homo sapiens with 18 samples.

Results

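The genes described here were listed as KRAB zinc finger genes and lie in a pair of clusters on human chromosome 19. The list names 41 genes, 17 in a block in band 19p12 on the short arm and 24 in a block in band 19q13 on the long arm. It was drawn up after ZNF382 and neighbouring zinc finger genes had been seen to be higher in L428-PAX5, a lymphoma line that expresses the transcription factor PAX5, than in its parent L428. The values that chose the genes are therefore those of L428-PAX5 against L428, with or without the drugs named below, and both comparisons are given as a description with no test. ZNF146 is on the list although its protein, commonly described, has no KRAB domain. Whether each of the other listed proteins has one was not checked. Of the 41 genes, 40 were measured, out of 18417 genes on the array. ZNF260 had no probe set that names it alone, and the listed symbol HKR1 was found under its current name ZNF875. All 17 genes of the 19p12 block and 23 of the 24 of the 19q13 block thus enter what follows.

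Total RNA from 18 samples of lymphoma cell lines was hybridised to arrays, in 6 groups of 3. L428, from Hodgkin lymphoma, and its derivative L428-PAX5 both received 0.25 nM mifepristone, the drug that switches PAX5 on in the derivative, over a treatment of 5 days (L428+M and L428-PAX5+M). In L428+MAT and in L428-PAX5+MAT, cells saw mifepristone alone for 2 days, were then kept for 3 days with 3 µM 5-aza-2′-deoxycytidine, which blocks DNA methylation, and had 640 nM Trichostatin A, which inhibits histone deacetylases, for the last 24 h. Raji and Namalwa, a pair of lines from Burkitt lymphoma, were untreated, so line and mifepristone cannot be told apart wherever they are set against L428. The medium of L428-PAX5 held 25 mM HEPES in addition, and no L428-PAX5 without mifepristone enters the series, so PAX5 and other properties of the derivative cannot be told apart. For L428-PAX5+MAT the 3 titles read L425-PAX5, but the cell line field, which was followed, reads L428-PAX5. Nothing in the labels says that the 3 samples of a group came from separate cultures, and p-values then reflect only how far these arrays spread, which can be technical.

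KRAB zinc finger proteins bind DNA through tandem zinc fingers and, through the KRAB domain, recruit the corepressor TRIM28 (KAP1), which brings in the histone methyltransferase SETDB1, HP1 proteins and the NuRD deacetylase complex. Many of them silence transposable elements, and their genes sit in clusters on chromosome 19 that grew by tandem duplication. The clusters themselves carry repressive histone marks in many cell types, and single members such as ZNF382 have been reported as silenced by promoter methylation in tumours.

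PAX5 was higher in every L428-PAX5 array (12.67 to 12.85 on the log2 scale of the deposited values) than in every L428 array (6.70 to 8.64). The first L428+M array, at 8.64, stood above the other 5 L428 arrays, which reached at most 7.28. Of the 5 measured B-cell markers, 5 in Raji and 4 in Namalwa lay above the median of all values, 6.62, against 0 or 1 in the groups of L428 and L428-PAX5. The 5 Hodgkin markers lay above it in all 4 of those groups, and 4 of them (all but GATA3) did so in Raji and Namalwa too. Array medians were between 6.52 and 6.70. Of the 40 zinc finger genes, 19 had a mean above 6.62, 12 of 17 in the 19p12 block and 7 of 23 in the 19q13 block. Background correction compresses differences near the floor of the scale, and those of dim genes are understated. In these bulk samples, fewer cells that express a gene and less RNA per cell cannot be told apart.

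The sequences before the starts of the genes differ between the blocks, and some of them are shown first. Whether they bear on the expression values was not tested. RefSeq promoter windows (assembly GRCh38.p14) were matched for 37 of the 40 genes, 16 in the 19p12 block and 21 in the 19q13 block. Several 19q13 genes lie head to head, on opposite strands with starts close together. The stretches between 3 such pairs of starts are printed on the plus strand with each CG pair, the target of DNA methylation, in capitals. ZNF529 and ZNF382 have starts 55 bases apart (chr19:36605258-36605312), with 7 CG pairs between them. ZNF461 and ZNF567 have starts 96 bases apart (chr19:36666838-36666933), with 6 CG pairs. ZNF565 and ZNF146 have starts 21 bases apart (chr19:36215085-36215105), with 1 CG pair.
ZNF529 and ZNF382: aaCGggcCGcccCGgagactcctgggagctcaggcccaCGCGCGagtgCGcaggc
ZNF461 and ZNF567: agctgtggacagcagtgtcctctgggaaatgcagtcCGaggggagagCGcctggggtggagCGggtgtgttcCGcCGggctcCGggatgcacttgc
ZNF565 and ZNF146: gggagtgcttcctCGctctcc
The first pair holds the gene with the largest difference between L428-PAX5 and L428, and both of its members were higher in L428-PAX5. Between L428-PAX5+M and L428+M, ZNF461 and ZNF567 differed by 0.98 and 0.61, and ZNF565 and ZNF146 by 0.08 and 0.18. A further pair, ZNF569 and ZNF570, has starts 327 bases apart and is not printed. Its genes differed by 0.25 and -0.14. These values may have entered the choice. With the drugs in L428-PAX5, ZNF146 fell and ZNF565 did not pass the test.

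In the 19p12 block the windows resemble one another. Over the 120 pairs of genes there, the median identity of aligned bases (gaps left out) was 83.8%, with a range of 46.5% to 92.0%. It was 54.7% over the 210 pairs in the 19q13 block and 54.2% between the blocks. The 10 bases TCCAATCAGG, which hold the CCAAT box, were found on either strand in 14 of 16 windows of the 19p12 block, in 0 of 21 genes of the 19q13 block and in 0.342% of all 35116 windows of the table. The shorter CCAAT, which lies inside it, was in 16 of 16 windows, in 4 of 21 genes and in 32.0% of all windows. ZNF257 and ZNF493 lack the longer form. These 10 bases are the stretch around CCAAT that most of the 19p12 windows hold, and they were picked on those windows. Below are the 250 bases before the start of 3 genes of the block that rose with the drugs in L428-PAX5 and of ZNF675, which did not rise, all on the minus strand with TCCAATCAGG in capitals. They lie at chr19:20661572-20661821 (ZNF626), chr19:21836183-21836432 (ZNF43), chr19:23758892-23759141 (ZNF681) and chr19:23687213-23687462 (ZNF675).
ZNF626: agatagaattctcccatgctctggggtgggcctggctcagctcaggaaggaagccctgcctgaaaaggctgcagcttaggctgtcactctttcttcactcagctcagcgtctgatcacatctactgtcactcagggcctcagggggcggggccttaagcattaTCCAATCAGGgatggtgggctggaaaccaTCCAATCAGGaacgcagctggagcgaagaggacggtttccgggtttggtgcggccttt
ZNF43: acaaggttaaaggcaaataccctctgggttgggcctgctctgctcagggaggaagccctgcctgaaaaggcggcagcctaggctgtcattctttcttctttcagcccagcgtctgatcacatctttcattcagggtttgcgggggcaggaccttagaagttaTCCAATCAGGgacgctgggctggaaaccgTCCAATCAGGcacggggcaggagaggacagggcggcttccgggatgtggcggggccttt
ZNF681: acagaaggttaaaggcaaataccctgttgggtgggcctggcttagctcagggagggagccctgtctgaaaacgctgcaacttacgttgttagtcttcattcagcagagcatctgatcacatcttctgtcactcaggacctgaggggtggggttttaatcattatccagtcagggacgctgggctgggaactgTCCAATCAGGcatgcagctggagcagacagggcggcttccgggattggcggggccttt
ZNF675: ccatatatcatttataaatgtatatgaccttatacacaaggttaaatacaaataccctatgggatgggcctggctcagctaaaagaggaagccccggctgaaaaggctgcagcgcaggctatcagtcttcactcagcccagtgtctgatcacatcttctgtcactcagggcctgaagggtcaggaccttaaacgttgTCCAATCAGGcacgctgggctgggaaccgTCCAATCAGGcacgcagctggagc
Of the 14 genes with TCCAATCAGG, 5 rose with the drugs in L428-PAX5 and 9 did not, and the 2 genes that lack it both rose. The blocks also differed in CG pairs. The 250 bases before a start held 3 to 11 of them in the 19p12 block, with a median of 7.50 over 16 windows. They held 6 to 31 in the 19q13 block, with a median of 18.5 over 38 windows, as some genes have several starts. The median of all windows was 11.0. These are features of the reference sequence, and methylation of these stretches was not measured.

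**Figure D1:**
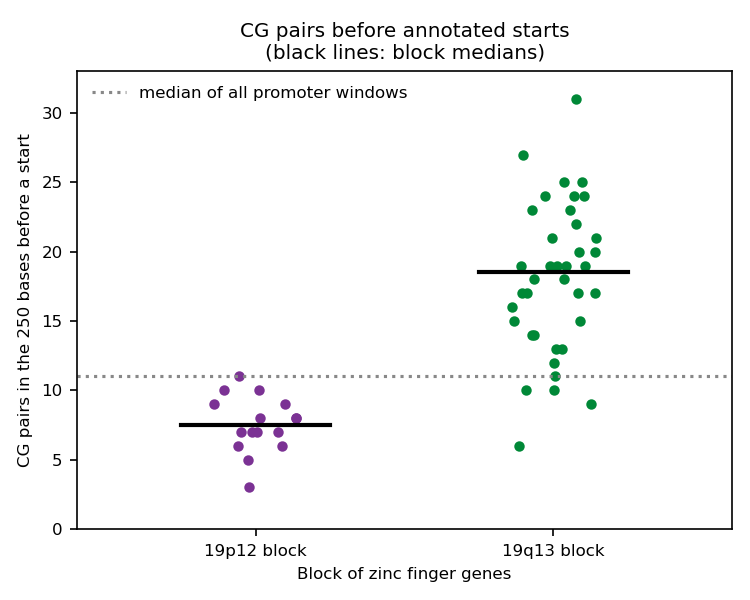
CG pairs in the 250 bases before each annotated start of the zinc finger genes (points, 1 per RefSeq promoter window; black lines, block medians; dotted line, median of all promoter windows). Windows of the 19p12 block hold 3 to 11 CG pairs, and those of the 19q13 block 6 to 31.

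Between L428-PAX5+M and L428+M, a comparison taken as used in the choice, ZNF382 had the largest difference of the list. ZNF382 encodes a KRAB repressor reported to restrain growth in tumour cells. The L428+M arrays read 6.13, 5.92 and 6.03 on the log2 scale, and the L428-PAX5+M arrays 9.61, 9.78 and 10.14. The difference of 3.82 ± 0.25 (SE, n = 3 per group) corresponds to 14.1-fold. Every L428-PAX5 array, with or without the drugs, lay above every other array of the series for this gene. Its head-to-head neighbour ZNF529 came next, with 6.66, 7.24 and 7.53 in L428+M against 8.61, 8.86 and 8.64 in L428-PAX5+M, a difference of 1.56 ± 0.18 or 2.96-fold. The next genes along the block, ZNF461 and ZNF567, form a head-to-head pair of their own. ZNF461, known as a gonadotropin-inducible repressor, had 5.41, 5.33 and 5.77 in L428+M against 6.07, 6.81 and 6.56 in L428-PAX5+M (0.98 ± 0.20). ZNF567 had 6.82, 6.55 and 7.45 against 7.48, 7.53 and 7.63 (0.61 ± 0.22). These 4 genes are the sixth to ninth measured genes of the 19q13 block in chromosomal order, and the groups did not overlap for any of them, though for ZNF567 the third L428+M array came close to the lowest L428-PAX5+M array. Without the first L428+M array, the one with more PAX5, the differences of ZNF529, ZNF382, ZNF461 and ZNF567 were 1.32, 3.87, 0.93 and 0.55.

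Outside this run, the other genes in the 6 largest differences were ZNF100, ZFP82 and ZNF626. ZNF100, in the 19p12 block, had 8.03, 7.92 and 8.43 in L428+M against 8.97, 8.99 and 9.16 in L428-PAX5+M (0.91 ± 0.18). ZFP82, a few genes before ZNF529, had 6.96, 6.76 and 6.44 against 7.74, 7.67 and 7.46 (0.90 ± 0.15). ZNF626, in the 19p12 block, had 8.79, 8.44 and 8.12 against 9.11, 9.24 and 9.39 (0.80 ± 0.20). In each of the 3, all L428-PAX5+M arrays lay above all L428+M arrays. At the other end, ZNF585B had 5.52, 4.68 and 5.90 in L428+M against 4.94, 4.90 and 5.37 in L428-PAX5+M (-0.29 ± 0.25). ZNF676 had 3.72, 3.70 and 4.19 against 3.57, 3.75 and 3.67 (-0.21 ± 0.24), and ZNF570 had 4.82, 4.52 and 4.45 against 4.46, 4.43 and 4.49 (-0.14 ± 0.16). The groups overlapped for all 3.

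The differences were uneven over the list. ZNF382 and ZNF529 were the 2 genes at 1 or more, 8 genes lay between 0.5 and 1, and 25 lay within 0.3 of zero. The arrays did not overlap and were higher in L428-PAX5+M for 9 of 40 genes, beside 15.3% of all genes, and lower for 0 of 40, beside 14.9%. Since the genes may have been chosen on this comparison, nothing is read from these counts. The median difference was 0.21 over the 40 genes, 0.33 in the 19p12 block and 0.14 in the 19q13 block, beside -0.03 over all genes. Without single arrays the median of the 40 moved between 0.12, without the third L428-PAX5+M array, and 0.31. The remaining genes lay between -0.10 (ZNF429) and 0.59 (ZNF675 and ZNF714).

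**Figure D2:**
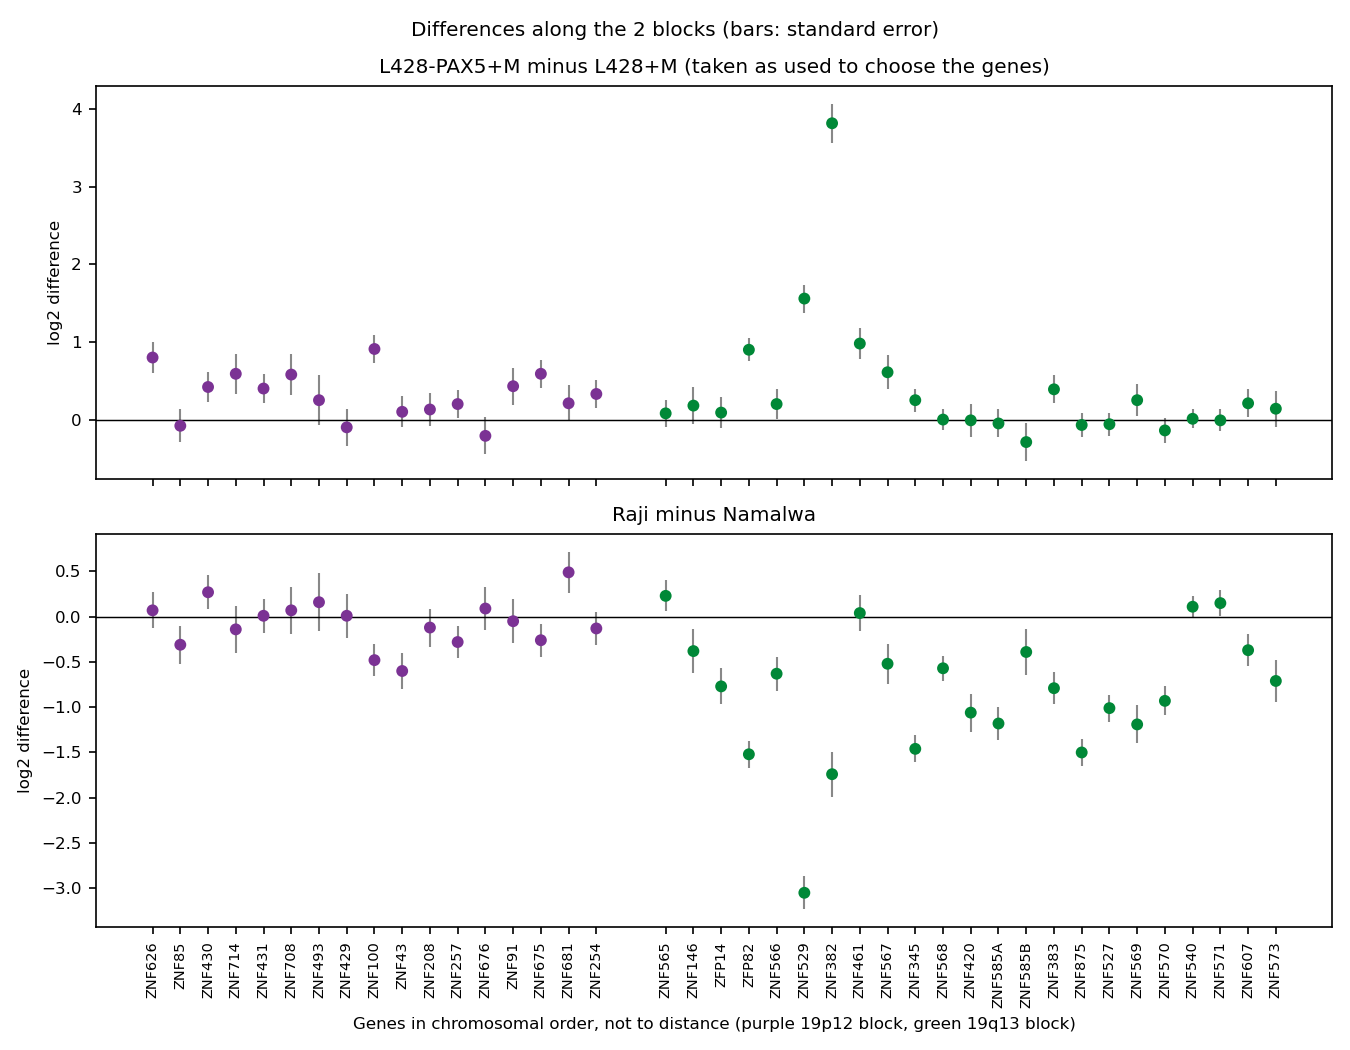
Log2 differences (points) with their standard errors (bars) for the 40 measured genes in chromosomal order, between L428-PAX5+M and L428+M (top) and between Raji and Namalwa (bottom), 3 arrays per group. ZNF529 and ZNF382 have the largest differences in the top panel, 1.56 and 3.82. In the bottom panel ZNF529 stands out with -3.05. ZNF382, at -1.74, is close to ZFP82 (-1.52), ZNF875 (-1.50) and ZNF345 (-1.46).

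With the drugs, L428-PAX5+MAT against L428+MAT, the differences are again given without a test, since the choice did not say which arrays it used. ZNF382 had 6.55, 6.37 and 6.52 in L428+MAT against 9.85, 9.62 and 10.20 in L428-PAX5+MAT, a difference of 3.41 ± 0.25 or 10.6-fold. ZNF461 had 5.60, 5.75 and 5.62 against 7.48, 7.66 and 8.04 (2.07 ± 0.20), and ZNF529 had 7.17, 7.39 and 7.35 against 8.43, 8.50 and 8.86 (1.29 ± 0.18). In the 19p12 block the largest differences were those of ZNF43, ZNF626 and ZNF681, at 1.43, 1.16 and 1.11. Of the 40 genes, 39 had a positive difference, including all 17 of the 19p12 block, beside 9116 of all 18417 genes. So had 12 of 13 zinc finger genes within the blocks that are not on the list, and 150 of 189 elsewhere on chromosome 19. Arrays did not overlap and were higher in L428-PAX5+MAT for 20 genes, beside 17.8% of all genes, and lower for 1, ZNF146, beside 20.6%. As the choice may have used these arrays, nothing about the listed genes is read from these counts. The median was 0.44 over the 40 genes, 0.62 in the 19p12 block and 0.24 in the 19q13 block, beside -0.00 over all genes. The comparisons with and without the drugs share no arrays.

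**Figure D3:**
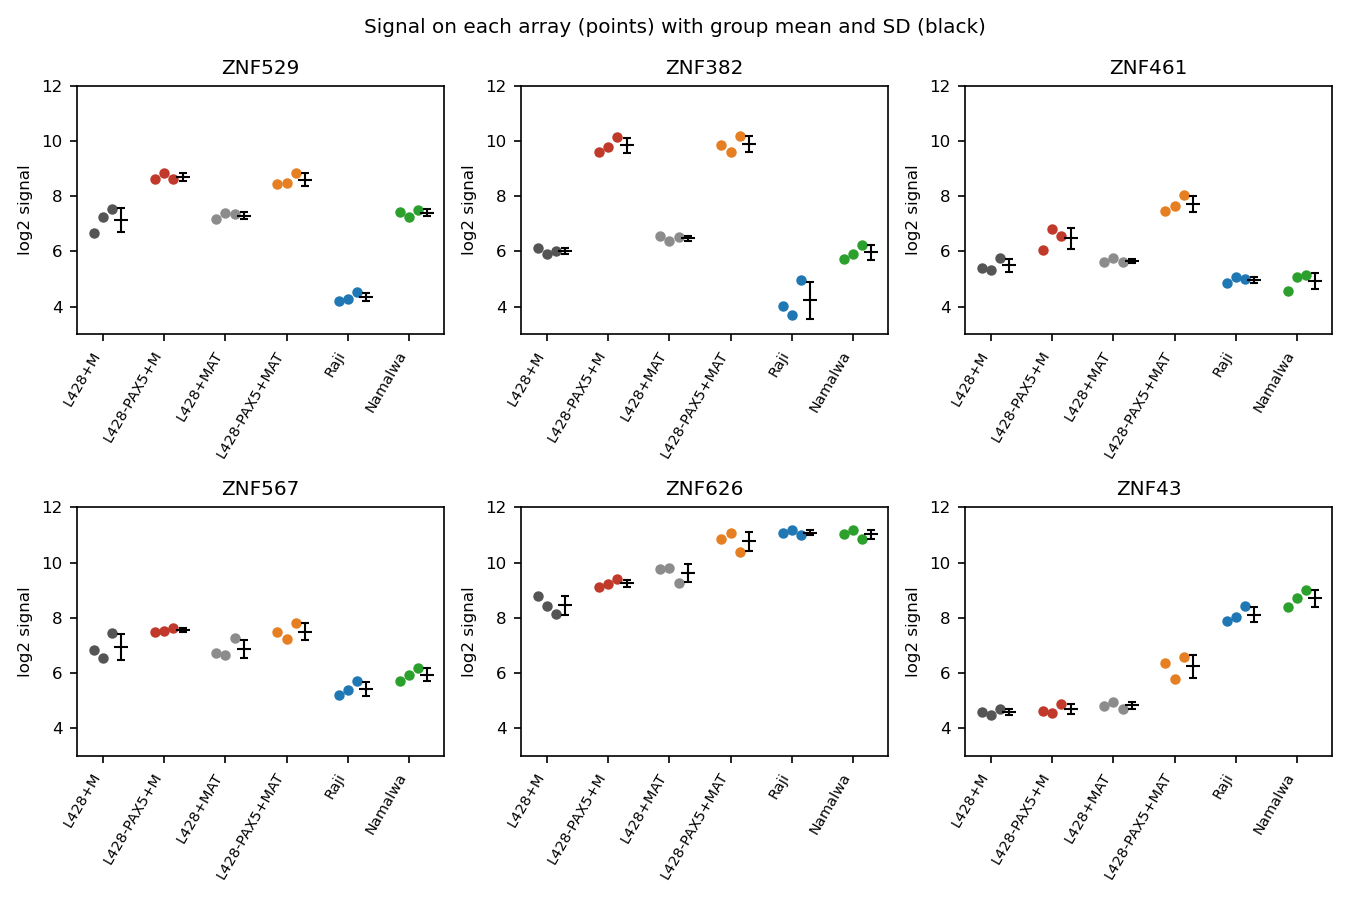
Log2 signal of 6 zinc finger genes on each of the 18 arrays (points, left to right replicate 1 to 3) with the mean and SD of each group of 3 (black). ZNF382 and ZNF529 are high in both L428-PAX5 groups and lowest in Raji, whereas ZNF626 and ZNF43 have their highest means in Raji and Namalwa.

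The effect of the drugs on L428 itself was compared between L428+MAT and L428+M, which shares the L428+M arrays, and possibly those of L428+MAT, with the choice. Genes chosen for low values in L428+M would lean towards a rise in it, and genes chosen for low values in L428+MAT towards a fall. ZNF626 rose and the other 39 genes did not pass. ZNF626 had 8.79, 8.44 and 8.12 in L428+M against 9.78, 9.82 and 9.25 in L428+MAT, with all treated arrays above all control arrays. Its difference was 1.16 ± 0.20, 2.24-fold, with a limma adjusted p of 8.89e-04. This was 1 of 40 genes, beside 4.21% of all genes higher, and 0 of 40 were lower, beside 0.635%. At a limma p below 0.05 with no adjustment, 3 were higher and 0 lower. No share of all genes is given at that looser threshold, here or for the like counts below. The median difference was 0.04 over the 40 genes and -0.04 over all genes. The arrays of ZNF382 did not overlap either, but its difference of 0.45 ± 0.25 had an adjusted p of 0.423.

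In L428-PAX5, the drug comparison may share the arrays of both its groups with the choice. Genes chosen as high in L428-PAX5+MAT would lean towards a rise in it, and genes chosen as high in L428-PAX5+M towards a fall. Of the 40 genes, 11 rose, beside 14.2% of all genes, and 1 fell, beside 19.4%. In the 19p12 block 7 of 17 rose and 0 fell, and in the 19q13 block 4 of 23 rose and 1 fell. At a limma p below 0.05 with no adjustment, these counts were 10 and 1 in the 19p12 block and 5 and 2 in the 19q13 block. The median was 0.50 in the 19p12 block, 0.10 in the 19q13 block and -0.04 over all genes. ZNF43, first described from lymphoid cell lines, had 4.62, 4.54 and 4.88 in L428-PAX5+M against 6.35, 5.78 and 6.59 in L428-PAX5+MAT (1.56 ± 0.20, 2.95-fold, limma adjusted p 9.15e-06). ZNF626 had 9.11, 9.24 and 9.39 against 10.84, 11.09 and 10.40 (1.53 ± 0.20, adjusted p 1.01e-05). ZNF461 had 6.07, 6.81 and 6.56 against 7.48, 7.66 and 8.04 (1.25 ± 0.20, adjusted p 7.80e-05). In these 3 genes every treated array lay above every array without drugs. ZNF382, ZNF529 and ZNF567, which were high without the drugs, had differences of 0.04 ± 0.25, -0.11 ± 0.18 and -0.04 ± 0.22 and did not pass, so that within the run of 4 neighbours 1 gene rose.

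The other genes that rose were ZNF493 (0.93), ZNF681 (0.92), ZNF429 (0.86), ZNF85 (0.72) and ZNF257 (0.51) in the 19p12 block and ZNF585A (0.82), ZNF875 (0.66) and ZNF571 (0.38) in the 19q13 block. The gene that fell was ZNF146, whose protein consists almost wholly of zinc fingers. It had 10.76, 10.57 and 11.04 in L428-PAX5+M against 9.65, 8.84 and 10.20 in L428-PAX5+MAT, with no overlap (-1.23 ± 0.24, 2.34-fold lower, limma adjusted p 6.44e-04). ZNF565, across the 21 bases from it, had a difference of 0.33 ± 0.17 that did not pass (adjusted p 0.167). In L428 the same drugs gave ZNF146 a difference of -0.18 that did not pass. Whether the drug effects differ between the lines was not tested. The count of 11 was 7 without the first or without the second L428-PAX5+M array, and it became 16 when arrays were blocked by replicate number. The count of 1 lower was 3 without the third L428-PAX5+MAT array and 2 with the block. The shares of all genes above belong to the main fit and do not apply to these other counts. The genes that passed with the block alone were ZNF208, ZNF430, ZNF431, ZNF676 and ZNF585B, all higher (limma adjusted p 0.00317 to 0.0286), and ZNF675, lower (-0.41, adjusted p 0.0379).

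Of the 11 rises, 6 held without each single array. That of ZNF429 was lost without the second L428-PAX5+M array (0.68, adjusted p 0.0632) and that of ZNF85 without the first (0.60, adjusted p 0.0638). The rise of ZNF493 was lost without any of the L428-PAX5+M arrays (adjusted p 0.0935, 0.0671 and 0.0565) or the second L428-PAX5+MAT array (adjusted p 0.156). Those of ZNF257 and ZNF571 were the least firm. ZNF257 was lost without the first or second L428-PAX5+M array (adjusted p 0.197 and 0.0955) and without the first or the third L428-PAX5+MAT array (adjusted p 0.0757 and 0.115). ZNF571 was lost without the first or second L428-PAX5+M array (adjusted p 0.194 and 0.0591) and without the second or the third L428-PAX5+MAT array (adjusted p 0.123 and 0.0875). Other zinc finger genes moved as well: 59 of 189 elsewhere on chromosome 19 rose and 11 fell, and 47 of 272 on other chromosomes rose and 42 fell. Markers of other cell types also differed, 4 of 10 being higher with the drugs (summed log2 signal 56.7 to 58.4 without and 59.9 to 61.0 with them), with COL1A1 and KRT18 above 6.62 in every group. Of the Hodgkin markers, 4 of 5 were lower. The part of these shifts in the rise of the zinc finger genes was not tested.

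**Figure D4:**
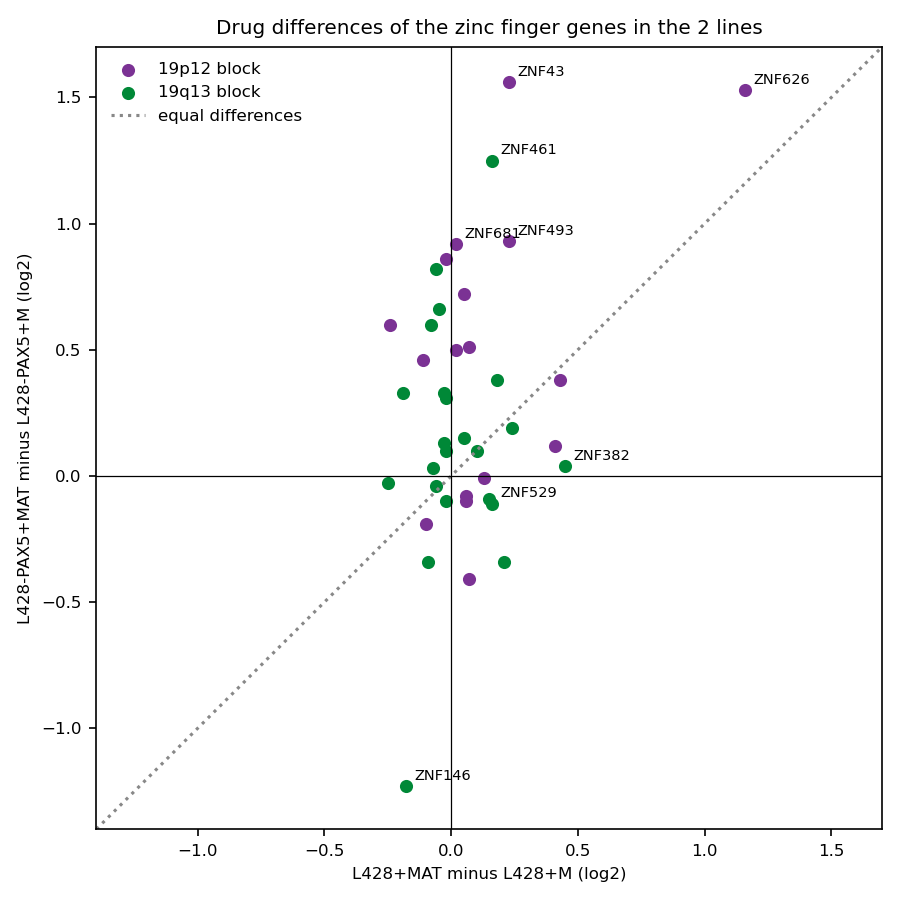
Log2 difference with the drugs in L428-PAX5 (vertical) against that in L428 (horizontal) for the 40 genes, each from 3 arrays per group. ZNF626 is far from zero in both lines (1.16 and 1.53), ZNF43 and ZNF461 in L428-PAX5 (1.56 and 1.25), and ZNF146 is the lowest gene in L428-PAX5 (-1.23).

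The Burkitt lines, pooled with equal weight, were compared with L428+M, whose arrays may also have entered the choice. Genes chosen for low values in L428+M would lean towards higher values in the Burkitt lines. Of the 40 genes, 21 were higher in the Burkitt lines, beside 18.7% of all genes, 6 were lower, beside 16.7%, and 13 did not pass. ZNF43 had 7.88, 8.04 and 8.41 in Raji and 8.39, 8.73 and 9.01 in Namalwa, against 4.58, 4.46 and 4.71 in L428+M (3.83 ± 0.17, 14.2-fold, limma adjusted p 1.01e-12). ZNF429 had 7.65, 8.25 and 8.19 and 7.32, 8.35 and 8.38, against 4.46, 4.58 and 4.90 (3.38 ± 0.21, 10.4-fold, adjusted p 1.41e-10). ZNF607, in the 19q13 block, had 6.61, 7.17 and 6.85 and 7.01, 7.44 and 7.27, against 4.26, 3.97 and 4.14 (2.94 ± 0.15, 7.66-fold, adjusted p 9.76e-12). For these 3 genes all Burkitt arrays lay above all L428+M arrays. ZNF626 (2.61), ZNF681 (1.91) and ZNF85 (1.71), all of the 19p12 block, followed. By block, 7 of 17 genes were higher and 1 lower in the 19p12 block, and 14 of 23 were higher and 5 lower in the 19q13 block. For 17 of the 21 higher genes both lines lay above all L428+M arrays. For the other 4, ZNF345, ZNF420, ZNF568 and ZNF570, only Namalwa did, and Raji overlapped L428+M. ZNF345, for example, had a mean of 3.71 in Raji against 3.66 in L428+M, while the Namalwa mean was 5.18. The median difference was 0.35 over the 40 genes and 0.03 over all genes.

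The 5 lower genes of the 19q13 block, ZNF566, ZNF529, ZNF382, ZNF461 and ZNF567, are consecutive among the measured genes. ZNF567 had 5.19, 5.38 and 5.69 in Raji and 5.72, 5.91 and 6.19 in Namalwa, against 6.82, 6.55 and 7.45 in L428+M (-1.26 ± 0.19, limma adjusted p 2.59e-05). ZNF566 had 6.90, 7.22 and 7.25 and 7.84, 7.73 and 7.68, against 8.58, 8.24 and 8.92 (-1.14 ± 0.17, adjusted p 1.59e-05). Both were lower in all arrays of both Burkitt lines. ZNF529 (-1.27 ± 0.16, adjusted p 2.17e-06) and ZNF382 (-0.93 ± 0.21, adjusted p 0.00169) had all Raji arrays below L428+M, while the Namalwa arrays overlapped those of L428+M. Namalwa had 7.42, 7.26 and 7.51 for ZNF529 and 5.73, 5.92 and 6.25 for ZNF382. The lower call of ZNF461 (-0.55) was lost without the third L428+M array (-0.42, adjusted p 0.112). So was the higher call of ZNF540 (0.26, adjusted p 0.117). The higher call of ZNF568 (0.33, adjusted p 0.0468) was lost without the first or second L428+M array, the first or second Namalwa array or any of the Raji arrays, with adjusted p between 0.0622 and 0.274. The sixth lower gene was ZNF431 (-0.79), in the 19p12 block.

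Of the 11 genes that rose with the drugs in L428-PAX5, 9 were also higher in the Burkitt lines, which is 9 of the 21 higher there, and 1, ZNF461, was lower. The comparisons share no arrays, but groups of both may have entered the choice of the genes, and the count is given as a description. The same overlap was not counted over all genes, so nothing about the listed genes is read from it.

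Raji and Namalwa share no array with the choice of the genes, and nearly all listed genes that differed between them lay in the 19q13 block. Of the 23 genes of the 19q13 block, 15 were lower in Raji, and of the 17 of the 19p12 block 1, ZNF43, was lower. No gene of the list was higher. The 16 of 40 lower genes stand beside 11.5% of all genes, and the 0 of 40 higher beside 7.74%. At a limma p below 0.05 with no adjustment, 1 gene of the list was higher and 18 were lower. The shares of all genes above do not apply to that looser threshold. ZNF529 had 4.22, 4.29 and 4.52 in Raji and 7.42, 7.26 and 7.51 in Namalwa (-3.05 ± 0.18, 8.30-fold, limma adjusted p 2.02e-10). ZNF382 had 4.01, 3.69 and 4.98 against 5.73, 5.92 and 6.25 (-1.74 ± 0.25, adjusted p 2.74e-05). ZFP82 had 6.24, 6.14 and 6.07 against 7.49, 7.86 and 7.66 (-1.52 ± 0.15, adjusted p 3.56e-07). None of these 3 overlapped between the lines. The median difference was -0.77 in the 19q13 block, -0.05 in the 19p12 block and 0.04 over all genes. The difference between the blocks was not tested.

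From ZNF345 to ZNF570, 9 of the 10 measured genes of the list were lower in Raji, the exception among them being ZNF585B (-0.39 ± 0.25, adjusted p 0.361). They include ZNF345 (-1.46), ZNF568 (-0.57), which in mouse controls a placental transcript of Igf2, ZNF420 (-1.06), a reported negative regulator of p53, ZNF585A (-1.18), ZNF383 (-0.79), ZNF875 (-1.50), ZNF527 (-1.01), ZNF569 (-1.19) and ZNF570 (-0.93). ZNF461 (0.04), ZNF565 (0.23), ZNF540 (0.11) and ZNF571 (0.15) of the same block had small positive differences and did not pass. ZNF567, the listed gene just before ZNF345, did not pass either (-0.52 ± 0.22, limma adjusted p 0.123). ZNF540 is the listed gene just after ZNF570, so the ends of the stretch follow the calls. Zinc finger genes that are not on the list do not enter its count. Of all genes, 1426 were higher and 2119 lower in Raji, but 1958 and 1707 with the array medians subtracted, which moved the median of all genes from 0.04 to 0.14. The calls of ZNF43 (-0.50, adjusted p 0.131), ZNF566 (-0.52, adjusted p 0.0969) and ZNF573 (-0.61, adjusted p 0.0958) were then lost, which left 13. Those 3 calls were also lost without single arrays: ZNF43 without the second or the third Namalwa array (adjusted p 0.103 and 0.201) or the first or second Raji array (0.178 and 0.120 as adjusted p). ZNF566 was lost without the first or second Namalwa array (adjusted p 0.0956 and 0.0641) or the first Raji array (adjusted p 0.132). ZNF573 was lost without the second or the third Namalwa array (adjusted p 0.0625 and 0.180) or the second or the third Raji array (adjusted p 0.141 and 0.163). The other 13 held without each single array. With the replicate number as a block, ZNF100 (limma adjusted p 0.00919) and ZNF567 (adjusted p 0.00675) passed as well.

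Zinc finger genes that lie within the blocks but are not on the list showed mixed values. Of 13 such genes, 1 was higher and 4 were lower in Raji than in Namalwa. Of the 7 in the 19p12 block 2 were lower, and of the 6 in the 19q13 block 2 were lower and 1 was higher. ZNF850 (-1.83) and ZNF790 (-1.32), named after their values were seen, were the largest of these, and ZFP30 (0.55) was the higher one, though it did not pass without the third Raji array (0.46, adjusted p 0.0583). ZNF730, of the 19p12 block, was 35.6-fold higher in the Burkitt lines than in L428+M (5.15 ± 0.16, limma adjusted p 6.00e-15). Between L428-PAX5+M and L428+M, 1 of the 13 passed, ZNF726 (0.73 ± 0.20, adjusted p 0.0155), and it did not without the first L428+M array (0.60, adjusted p 0.0796) or the second L428-PAX5+M array (0.57, adjusted p 0.0986). With the drugs in L428-PAX5, 5 of 13 rose, ZNF850 the most (1.76, 3.38-fold). The count was 2, ZNF730 and ZNF850, without the first L428-PAX5+M array, and 3 without the third L428-PAX5+M array or the first or second L428-PAX5+MAT array. Elsewhere on chromosome 19, 7 of 189 zinc finger genes were higher in Raji than in Namalwa and 43 were lower, with a median of -0.11. On other chromosomes 20 of 272 were higher and 49 lower, with a median of -0.10.

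**Figure D5:**
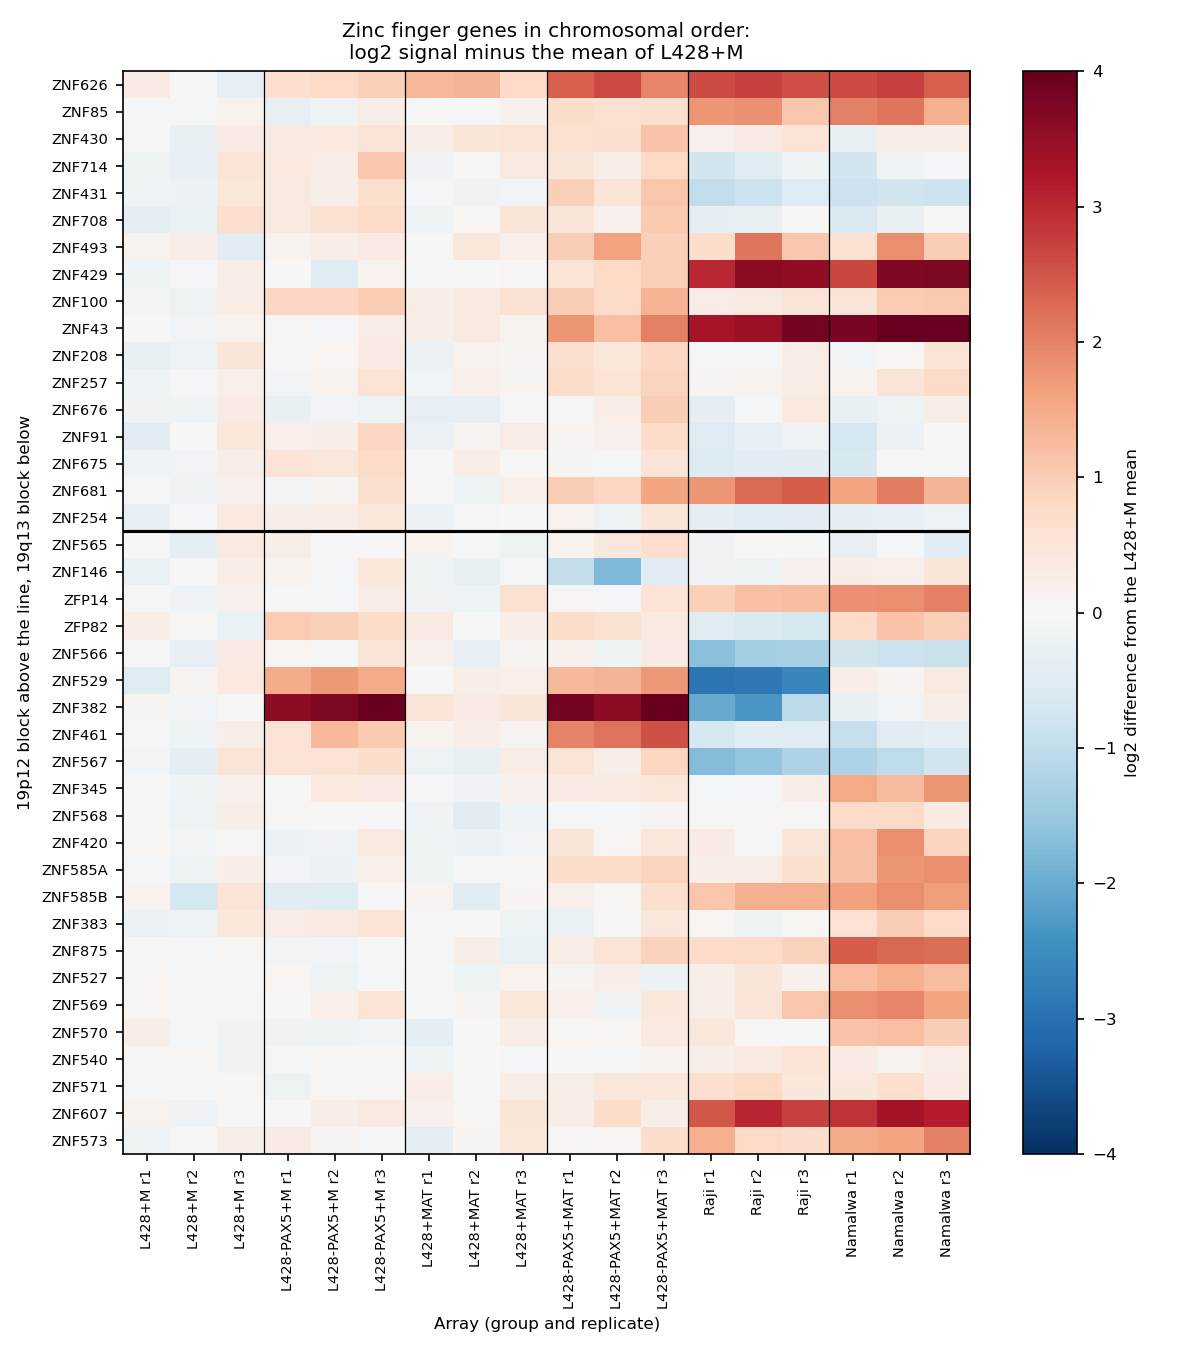
Log2 signal of the 40 genes in chromosomal order on each of the 18 arrays, minus the mean of the gene in L428+M (red, higher; blue, lower; black line, border between the blocks). ZNF382 is high in all 6 L428-PAX5 arrays, and ZNF429, ZNF43 and ZNF607 are high in all 6 Burkitt arrays.

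Arrays of one group also differed over the list as a whole. The median over the 40 genes, as difference from their L428+M means, was 0.24 on the third L428+M array against -0.05 and -0.12 on the others. It was 0.40 on the third L428-PAX5+M array against 0.08 and 0.13, and 0.71 on the third L428-PAX5+MAT array against 0.40 and 0.40. The same number thus marked the highest array in each of these groups, and also in L428+MAT (0.14) and Raji (0.30), but not in Namalwa, where the second was highest (0.87). For the listed genes, counts with the replicate number as a block are given where they differ.

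Members of the 19p12 block resemble one another in sequence, and probes may be shared between them, so their values are uncertain in that respect. One probe set on the array names 8 genes, 5 of them on the list, and was bright in all groups (means of 13.17 to 13.55). Where a gene had further probe sets, they gave other sizes. The second set of ZNF626 had a difference of 0.09 between L428-PAX5+M and L428+M, where the brighter set used here had 0.80, and 0.73 against 1.16 with the drugs in L428. With the drugs in L428-PAX5 the sets of ZNF626 gave 1.32 and 1.53, those of ZNF493 1.19 and 0.93, and those of ZNF257 1.04 and 0.51.

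The partners through which KRAB proteins silence were followed in a list of 20 genes. Between L428-PAX5+M and L428+M, 5 of 20 were higher and 0 lower, beside 9.72% and 6.55% of all genes. With no adjustment, 7 of 20 were higher and 0 lower at a limma p below 0.05, a threshold to which those shares do not apply. SETDB1, the methyltransferase recruited by TRIM28, differed by 0.59 ± 0.12 (limma adjusted p 0.00232) and DNMT1, the maintenance DNA methyltransferase, by 0.52 ± 0.12 (adjusted p 0.00512), and both held without each single array. The others did not hold without each array. DNMT3B (0.68) did not pass without the second or the third L428+M array or the first or second L428-PAX5+M array (adjusted p up to 0.141). MPHOSPH8 (0.64) did not pass without the first or second L428+M array or the second or the third L428-PAX5+M array (adjusted p up to 0.112). MORC2 (0.40) did not pass without the second L428+M array or any 1 of the L428-PAX5+M arrays (adjusted p up to 0.105). With the drugs, 0 of 20 passed limma's adjusted test in L428, and 4 had a p below 0.05 with no adjustment. In L428-PAX5 4 of 20 fell, beside 19.4% of all genes, and 2 rose, beside 14.2%, shares near those of the array as a whole. Those that fell were SUV39H1 (-1.42) and EHMT2 (-0.56), both histone methyltransferases, TASOR (-1.06), a subunit of the HUSH silencing complex, and SETDB1 (-0.79). Those that rose were the DNA methyltransferase DNMT3B (0.94) and the HUSH subunit MPHOSPH8 (0.62). EHMT2 did not pass without the first or second L428-PAX5+M array (adjusted p 0.0577 and 0.0516), nor MPHOSPH8 without the first L428-PAX5+M or second L428-PAX5+MAT array (adjusted p 0.0850 and 0.0508). Between L428-PAX5+MAT and L428+MAT, which shares the L428-PAX5+MAT arrays with this comparison, 3 of 20 were higher and 5 lower, beside 14.3% and 17.7% of all genes. There SETDB1 was lower (-0.48 ± 0.12, limma adjusted p 0.00565, or 0.0604 when only these groups were fitted), in the other direction than without the drugs. SUV39H1 (-1.61) and TASOR (-1.09) were lower too, and DNMT3B (1.34) and MPHOSPH8 (1.05) higher.

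In the Burkitt lines 8 of the 20 were higher than in L428+M and 4 lower, beside 18.7% and 16.7% of all genes. DNMT3B (1.69), DNMT1 (1.36), MPHOSPH8 (1.13), the NuRD subunit CHD4 (0.91) and SETDB1 (0.76) were among the higher genes and ATF7IP (-0.76), a partner of SETDB1, among the lower. SUV39H1 (0.64) was higher as well, but not without the third L428+M array (0.38, adjusted p 0.131). Between Raji and Namalwa 3 of 20 were higher and 4 lower, beside 7.74% and 11.5% of all genes. The lower ones included DNMT3A (-0.89), MORC2 (-0.76) and UHRF1 (-0.85), which guides DNMT1 to replicated DNA, and the higher ones CHD3 (0.69). UHRF1 did not pass without the first Namalwa array (-0.70, adjusted p 0.0723) or the third Raji array (-0.75, adjusted p 0.0526). With the mean of its probe sets in place of the brightest, its difference was -0.34 and did not pass either (limma adjusted p 0.311). TRIM28 itself did not pass in any of these comparisons, with differences from -0.14 to 0.26.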

How the data were processed

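The authors deposited log2 expression values per probe set of an Affymetrix whole-transcript array. The submitters' processing notes name Partek and RMA. Their versions, the order of steps and the array build are not given in the sources used here. Probe sets with exactly 1 symbol in the platform annotation were kept (19460 of 33297) and the brightest on average was taken per gene, which left 18417 genes. Gene order, current names and promoter windows came from RefSeq (GRCh38.p14), and identity from pairwise alignment with biopython 1.88. Group means were fitted on all 18 arrays in R 4.3.3 with lmFit and eBayes of limma 3.58.1, without a trend, with 12 residual and 6.1 prior degrees of freedom. Tests were two-sided, with Benjamini-Hochberg adjustment over 18417 genes, and a gene passed at an adjusted p below 0.05. On simulated data the fit recovered 83 of 100 genes with a 2-fold change. The simulated noise was independent between arrays, so the shared deviations described below were not covered. The number of arrays limits the precision.

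The genes, the lists and the naming rule were chosen with earlier results of these data known. Values on every array are given for ZNF382, for the 6 largest and 3 smallest differences between L428-PAX5+M and L428+M, and for up to 3 rises and 3 falls per tested comparison. By the rule, corepressors are named that pass with at least 1.5-fold change, and up to 5 unlisted zinc finger genes of the blocks. TRIM28, EHMT2 (1.47-fold lower with the drugs in L428-PAX5), ZNF850 and ZNF790 are named outside it. The rule also picks ZNF724 (0.68) and ZNF492 (0.21), which did not pass between L428-PAX5+M and L428+M.

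Same-numbered arrays deviated together from their group means. Correlations were 0.489 to 0.655 between L428+M and L428+MAT, 0.311 to 0.419 between the L428-PAX5 groups and 0.325 to 0.541 between Raji and Namalwa. They were 0.484 to 0.57 between L428+M and L428-PAX5+M and 0.273 to 0.353 between L428+MAT and L428-PAX5+MAT. The numbers thus pair these arrays, though the labels do not say what they mean. The main fit and the fits without single arrays leave this pairing out. For the listed genes, counts with it are given beside the main ones. None are given for the corepressors or for zinc finger genes that are not on the list. Between the Burkitt lines and L428+M, 2 of 3 pairs per line exceeded 0.1, and the numbers were not taken as pairs. Alternatives were array medians subtracted, quantile normalization, a filter on dim genes, the mean of probe sets, only the groups compared, a 2-fold minimum, the replicate block and leaving out each array.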

Additional observations from a re-analysis of the deposited data

Results flagged for a closer look

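A probe set that names ZNF98, ZNF492 and ZNF85 together was not used in any comparison, since its signal cannot be given to 1 gene. Its log2 mean was 0.64 higher in L428-PAX5+MAT than in L428+M (7.04 against 6.39), and it was picked out as a signal in data that the comparisons do not use.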

How the results depend on the processing

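Over the 40 genes and the 4 tested comparisons, 56 calls passed and none changed sign under any alternative run, but 47 of their 771 refits lost the call (the 2-fold rule apart). Of the 104 values that did not pass, 106 of 1345 refits had the other sign, all of values at most 0.25 in size, and 31 passed. A filter on dim genes leaves 19 of the 40 genes to be counted: 3 higher with the drugs in L428-PAX5, 3 higher in the Burkitt lines and 5 lower in Raji, with a median of 0.43 between L428-PAX5+M and L428+M. When a 2-fold change was also needed, these counts were 3, 13 and 9, and 3 were lower in the Burkitt lines. Quantile normalization gave a median of 0.51 between L428-PAX5+MAT and L428+MAT. With the replicate number as a block, the pairing gave 16 higher and 2 lower with the drugs in L428-PAX5, 18 lower in Raji, and the same 1 higher and 0 lower counts in L428. In the Burkitt comparison, where the numbers were not taken as pairs, the block gave 23 higher and 10 lower. Shares of all genes are not given under the block, so nothing about the listed genes is read from these counts. Leaving out each array gave 7 to 12 higher and 1 to 3 lower with the drugs in L428-PAX5, 1 higher and 0 lower in L428, 20 to 21 higher and 5 to 7 lower in the Burkitt lines, and 13 to 16 lower in Raji. The medians then ranged from 0.12 to 0.31 between L428-PAX5+M and L428+M and from 0.33 to 0.55 between L428-PAX5+MAT and L428+MAT. Except for the filter and the 2-fold rule, whose construction lowers the counts, the cause of these shifts was not tested. With 21 of the 40 genes below the median signal, small differences of dim genes may be missed.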
